A study of Mus musculus with 4 samples.

Results

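The 36 mitosis genes described here are a fixed list of symbols, all 36 of which were present among the 56980 genes of the deposited matrices. They were read as UMIs (unique molecular identifiers, each standing for 1 captured transcript molecule) per library in basal, suprabasal and hair follicle keratinocytes of embryonic mouse skin, with the triple knockout (TKO) set against the control (Ctrl). In TKO basal cells 10 of the 36 genes rose, led by the ubiquitin carrier Ube2c, the kinase Plk1 and the cyclin Ccna2, and none fell, where 7.58% of all genes rose and 4.24% fell. The count was 3 when either Ctrl library was left out. The rise went with more cells that carried G2/M transcripts, called at 5 or more UMIs over 37 other G2/M genes at equal depth. Such cells made up 63.7% of TKO against 42.3% of Ctrl basal cells, as means of 2 libraries. On average such a cell held 24.3 and 23.9 mitosis gene UMIs per 5000 in Ctrl and 22.1 and 22.2 in TKO. At full depth, which was greater in TKO, such a cell held 131 and 114 against 172 and 158. With 20 or more UMIs of the 37 genes, the shares of basal cells overlapped between the groups (16.1% and 13.1% against 16.3% and 14.4%).

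The libraries came from sorted Epcam+ α6+ dorsal skin cells of E16.5 embryos, 2 Ctrl and 2 TKO, 1 embryo per library. The study's list of litters gives the single-cell litter an earlier day, and the labels were followed. By the study's account each group held both sexes, which the labels do not tie to libraries, and the part of sex was not tested. Every embryo was Suv39h1 f/f, Suv39h2-/-, Setdb1 f/f and was exposed to tamoxifen, so that the Ctrl carried the Suv39h2 deletion too. Only the TKO embryos carried K14CreERT2, a tamoxifen-activated recombinase under a keratin 14 promoter, which acts in the epithelium and, by the study's account, recombined in a mosaic pattern. The 3 targeted genes encode methyltransferases of histone H3 lysine 9, and the comparison asks what deleting Suv39h1 and Setdb1 on the Suv39h2-/- background does to the mitotic program of each keratinocyte class.

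Mitotic genes are transcribed periodically. In quiescent cells and in G1 the DREAM complex holds them down at CHR elements (the letters TTTGAA are the core of the best known form), often beside CCAAT boxes bound by NF-Y, and in late S phase and G2 the MYBL2-MuvB complex and FOXM1 switch them on. Entry into mitosis is driven by CDK1 with cyclins A and B, and exit by the anaphase promoting complex, which destroys the cyclins. In the epidermis division is largely a property of the basal layer and of the growing follicle, and cells withdraw from the cycle as they move into the suprabasal layers.

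To show the regulatory sequence behind the genes that moved most, the promoters of 6 called members are printed here, each as 300 bases from 250 bases upstream to 50 downstream of the RefSeq start, 5′ to 3′ on the gene's strand. The windows come from the RefSeq table of GRCm38.p6, and each has 1 exact match in GRCm39, whose coordinates are given. Capitals mark TTTGAA or CCAAT on either strand (TTCAAA and ATTGG when read on the printed strand), and in the Ube2c window a CCAAT and an ATTGG overlap by 2 bases.
Ube2c, chr2:164611599-164611898, strand +: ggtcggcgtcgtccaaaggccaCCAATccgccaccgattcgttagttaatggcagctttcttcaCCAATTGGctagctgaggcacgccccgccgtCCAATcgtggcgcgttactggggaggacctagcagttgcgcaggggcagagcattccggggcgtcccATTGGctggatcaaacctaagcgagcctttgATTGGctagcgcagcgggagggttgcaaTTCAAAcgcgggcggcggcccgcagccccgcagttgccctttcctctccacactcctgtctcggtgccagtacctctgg
Plk1, chr7:121758408-121758707, strand +: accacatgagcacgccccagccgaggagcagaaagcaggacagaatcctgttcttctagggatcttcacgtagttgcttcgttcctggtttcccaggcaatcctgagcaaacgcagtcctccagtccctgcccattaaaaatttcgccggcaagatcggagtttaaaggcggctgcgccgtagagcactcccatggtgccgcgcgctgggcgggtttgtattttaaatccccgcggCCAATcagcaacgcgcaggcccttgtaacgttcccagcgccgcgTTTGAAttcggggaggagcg
Cdk1, chr10:69188693-69188992, strand −: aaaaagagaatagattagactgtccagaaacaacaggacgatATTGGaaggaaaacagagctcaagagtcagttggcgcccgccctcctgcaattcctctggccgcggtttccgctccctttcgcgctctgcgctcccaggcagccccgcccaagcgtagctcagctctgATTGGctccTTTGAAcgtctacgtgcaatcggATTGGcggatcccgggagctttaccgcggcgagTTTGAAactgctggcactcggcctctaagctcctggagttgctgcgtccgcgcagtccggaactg
Birc5, chr11:117739813-117740112, strand +: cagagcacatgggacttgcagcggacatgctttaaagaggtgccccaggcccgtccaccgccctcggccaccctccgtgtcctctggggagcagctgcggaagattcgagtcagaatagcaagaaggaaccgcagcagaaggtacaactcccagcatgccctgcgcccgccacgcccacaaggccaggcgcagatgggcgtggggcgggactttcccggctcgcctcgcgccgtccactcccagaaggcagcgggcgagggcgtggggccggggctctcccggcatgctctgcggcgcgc
Aspm, chr1:139382261-139382560, strand +: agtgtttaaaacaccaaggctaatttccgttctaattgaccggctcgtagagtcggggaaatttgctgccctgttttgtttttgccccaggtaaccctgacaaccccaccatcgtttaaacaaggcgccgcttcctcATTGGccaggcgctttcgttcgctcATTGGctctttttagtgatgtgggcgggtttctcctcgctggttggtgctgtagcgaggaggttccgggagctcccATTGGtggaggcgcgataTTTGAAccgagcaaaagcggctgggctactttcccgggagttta
Cdc25b, chr2:131028618-131028917, strand +: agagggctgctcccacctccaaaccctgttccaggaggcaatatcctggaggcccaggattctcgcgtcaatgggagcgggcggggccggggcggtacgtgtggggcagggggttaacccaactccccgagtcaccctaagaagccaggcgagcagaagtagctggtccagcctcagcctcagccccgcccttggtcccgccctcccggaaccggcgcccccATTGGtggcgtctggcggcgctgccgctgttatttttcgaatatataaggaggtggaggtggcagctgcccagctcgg

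Of the 36 members, 29 had a window in the table, and Ccna2, Aurkb, Cdc25c, Kif20a, Tpx2, Pif1 and Incenp had none. TTTGAA was in 21 of the 29 windows (72.4%), against 18.1% of all 27025 promoters. CCAAT was in 24 (82.8%), against 37.9%, and both strings were in 19 (65.5%), against 7.12%. Among members that rose in a class TTTGAA was in 6 of 9 windows and CCAAT in 8 of 9, and among the rest in 15 of 20 and 16 of 20, a difference that was not tested. Of the printed windows, those of Birc5 and Cdc25b held no TTTGAA and that of Birc5 no CCAAT, which says only that these letters were not in the 300 bases.

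The 4 libraries held 3804 to 5785 barcodes and 70749496 to 89655247 UMIs. After filtering, 9194 keratinocytes remained in 18 clusters, which held suprabasal and hair follicle cells although the samples are labelled as basal, and clustering left out cell cycle genes and genes that differed between genotypes. The basal class held 829 to 1445 cells per library, the suprabasal class 217 to 781 and the hair follicle class 352 to 760, with class sums of 8004917 to 28425098 UMIs. Each class carried its own markers (at least 9 of 10 basal, 10 of 13 suprabasal and 12 of 14 hair follicle markers at 10 or more CPM, the UMIs of a gene per 1000000 UMIs of the class), and immune and endothelial lists summed to at most 10.6 CPM in any class and library. A fibroblast list summed to 1183 and 1282 in Ctrl and 960.0 and 749.6 in TKO basal cells, with 1 of its 6 genes at 10 or more, and it summed to 1636 to 2010 in hair follicle cells. Erythroid genes summed to at most 20.5 CPM except in hair follicle cells of TKO replicate 2 (104 CPM), and melanocyte genes to at most 15.2 except in Ctrl hair follicle cells (24.2 and 34.2). The part of these lists in the results was not tested. A basal cluster led by stress and immediate early genes (Cxcl10, Zfp36, Atf3, Fos) held 151 and 391 Ctrl and 213 and 87 TKO cells. Classes drew on their clusters unequally by genotype: a basal cluster led by Anks1b and Gria3 held 25 and 15 Ctrl and 58 and 65 TKO cells, and a hair follicle cluster led by Dkk4 held 237 of 565 and 303 of 760 Ctrl cells and 212 of 352 and 212 of 447 TKO cells. TKO cells were deeper, with median UMIs per basal cell of 21042 and 17269 in Ctrl and 30207 and 27934 in TKO, so per-cell comparisons were made after thinning every cell to 5000 UMIs. Pairs of libraries shared 2 to 12 barcodes.

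Setdb1 in basal cells stood at 72.8 and 59.1 CPM in Ctrl and 40.2 and 44.4 in TKO (log2 change −0.65, adjusted p = 0.0302, edgeR). Suv39h1 stood at 31.3 and 28.8 against 29.1 and 23.8 (log2 change −0.19, adjusted p = 0.389). Suv39h2, deleted by label in all 4 libraries, still gave 16.6 and 18.4 CPM in Ctrl and 24.3 and 17.4 in TKO. These 3′ tags need not lie in the deleted exons, so they test the labels only in part.

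With the main settings and all 4 libraries, basal cells had the most members called, an order that some other settings changed. edgeR raised 10 of the 36 members and lowered none, where 7.58% of all 17212 genes tested were raised and 4.24% lowered. The log2 change was positive for 34 of 36, with a median of 0.31 against −0.01 over all genes. Both TKO libraries lay above both Ctrl libraries for 27 of 36 members, against 30.1% of all genes, and below for Cdc25b alone, against 28.2%. The class's own basal markers summed to 18962 and 21994 CPM in Ctrl and 14625 and 18846 in TKO, suprabasal markers to 1254 and 962 against 492 and 903, and hair follicle markers to 274 and 261 against 177 and 242. All 3 sums were lower in TKO without overlap, and their part in the result was not tested.

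**Figure D1:**
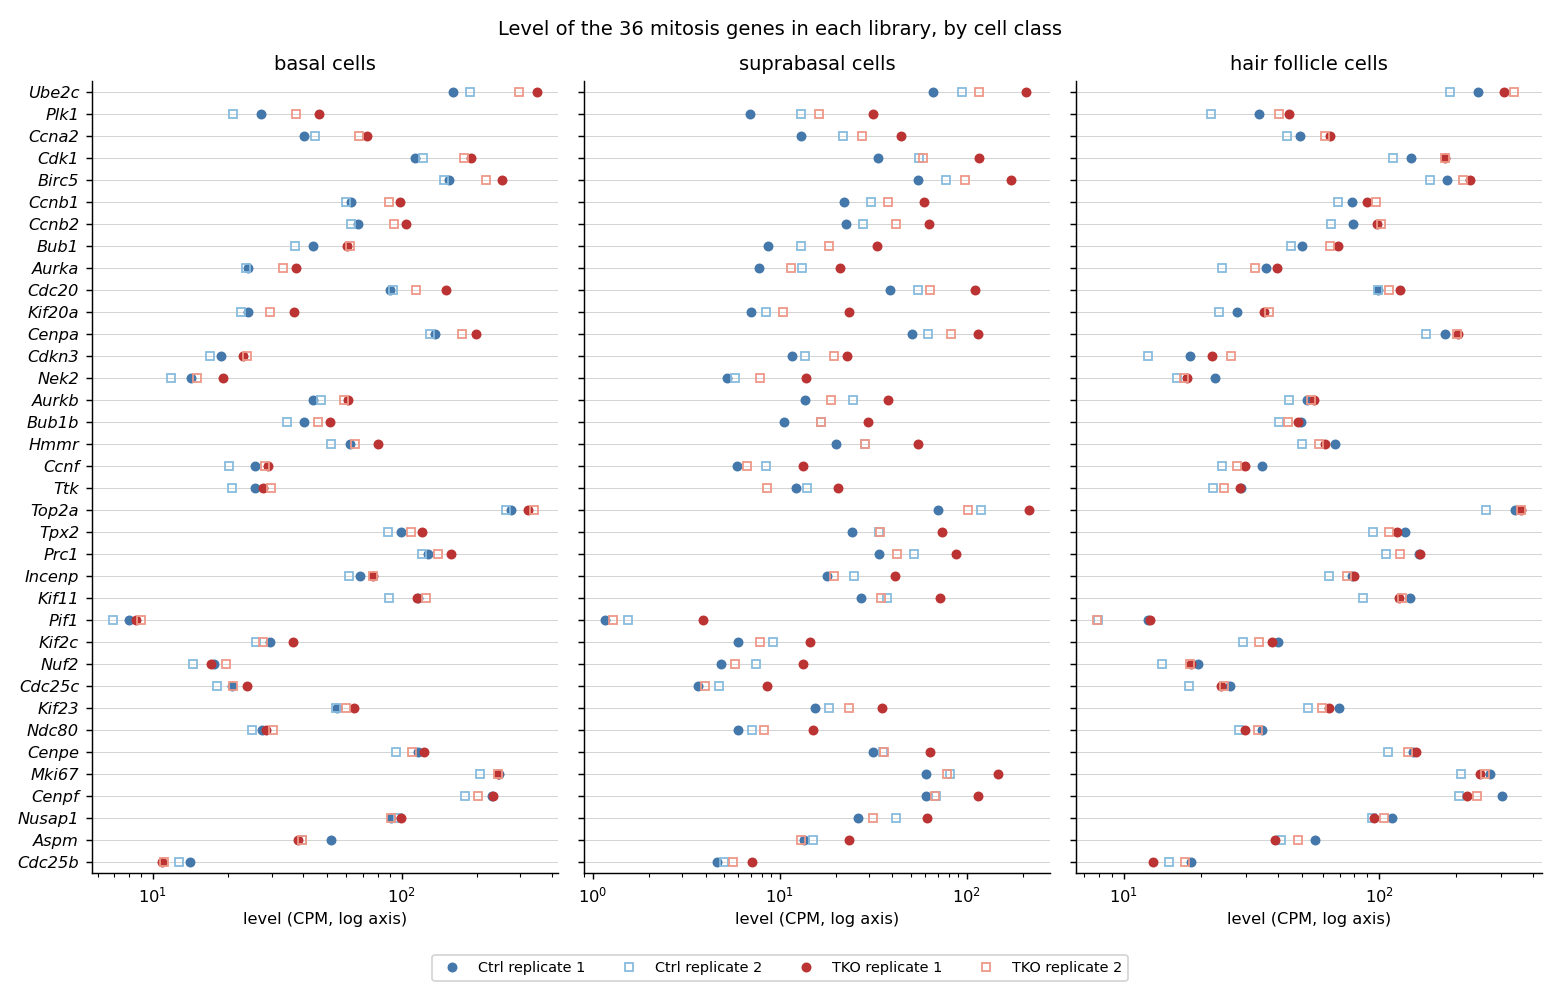
Level of each of the 36 mitosis genes (rows, in the order of their basal log2 change) in CPM of the class, on a log axis, in basal, suprabasal and hair follicle cells. Each point is 1 library (blue Ctrl, red TKO), and the reader should see the red points to the right of the blue for most genes in the left panel, with TKO replicate 1 standing alone to the right in the middle panel.

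Of the 2 exit regulators 1 rose. Ube2c, the E2 enzyme that charges the anaphase promoting complex with ubiquitin, had 161 and 189 CPM in Ctrl basal cells and 350 and 297 in TKO. The TKO libraries lay well clear of the Ctrl, a log2 change of 0.88 ± 0.13 (SE) with adjusted p = 0.0096, resting on 4579 to 9849 UMIs per library. Cdc20, the activator of the same complex at anaphase, had 89.4 and 92.4 against 151 and 114, and its change of 0.53 ± 0.14 did not pass (adjusted p = 0.0511).

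Of the 8 entry regulators, 4 rose. Cdk1, the mitotic kinase itself, had 113 and 122 CPM in Ctrl and 189 and 178 in TKO (log2 change 0.64 ± 0.10, adjusted p = 0.0133). Ccna2, its cyclin in S phase and G2, had 40.6 and 44.9 against 72.8 and 67.6 (0.71 ± 0.11, adjusted p = 0.0117). The B cyclins, which carry CDK1 into mitosis, moved by like amounts and without overlap of the groups. Ccnb1 had 62.6 and 59.7 against 98.7 and 89.1 (0.61 ± 0.10, adjusted p = 0.0141). Ccnb2 had 67.0 and 62.4 against 104 and 93.2 (0.60 ± 0.10, adjusted p = 0.0158). Cdc25b, a phosphatase that activates CDK1, was the exception, with 14.1 and 12.8 in Ctrl and 10.9 and 11.1 in TKO, a change of −0.30 ± 0.15 that did not pass (adjusted p = 0.240). Ccnf, Cdc25c and Cdkn3 had log2 changes between 0.19 and 0.39 that did not pass.

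Of the 6 mitotic kinases, 3 rose. Plk1, which acts from G2 to cytokinesis, had 27.1 and 20.9 CPM in Ctrl and 46.4 and 37.6 in TKO (0.80 ± 0.16, adjusted p = 0.0256). Bub1, a spindle checkpoint kinase, had 44.0 and 37.1 against 60.5 and 62.2 (0.59 ± 0.12, adjusted p = 0.0264). Aurka, the centrosomal Aurora kinase, had 24.2 and 23.7 against 37.7 and 33.4 (0.56 ± 0.12, adjusted p = 0.0271). In none of these kinases did the groups overlap, and Bub1b, Nek2 and Ttk, with log2 changes of 0.30 to 0.38, did not pass.

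Among the chromosomal passengers Birc5 (survivin) rose, from 155 and 148 CPM in Ctrl to 253 and 218 in TKO (0.63 ± 0.11, adjusted p = 0.0155). Its partners Aurkb and Incenp did not pass (0.38 and 0.24). Of the 5 kinetochore and centromere genes, only Cenpa, the centromeric histone H3 variant, rose, from 137 and 130 to 199 and 175 (0.48 ± 0.10, adjusted p = 0.0306). The outer kinetochore genes Cenpe, Cenpf, Ndc80 and Nuf2 had log2 changes of 0.08 to 0.19.

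None of the 9 spindle and cytokinesis genes passed in basal cells, and neither did the proliferation markers. Kif20a, a kinesin of the central spindle, had the highest change of the 9, with 24.2 and 22.5 CPM in Ctrl and 37 and 29.6 in TKO (0.50 ± 0.13, adjusted p = 0.0589). At the other end Nusap1, a microtubule bundler, had 90.8 and 96.8 against 99.2 and 90.3, and Aspm, a spindle pole protein, had 52.0 and 39.7 against 38.4 and 39.8, so that in both the groups overlapped. Mki67, the common proliferation marker, had 245 and 206 against 243 and 243 (0.10 ± 0.12, adjusted p = 0.619), and Top2a, the topoisomerase that untangles sister chromatids, 275 and 262 against 322 and 340 (0.30 ± 0.10, adjusted p = 0.116). Pif1, a DNA helicase, stood at 0.22.

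The basal count of 10 moved with the libraries. It was 3 without Ctrl replicate 1 and 3 without Ctrl replicate 2, where 3.06% and 3.59% of all genes were raised, and was 8 and 12 without TKO replicates 1 and 2, where 6.02% and 8.82% were. Ube2c passed under all 16 alternatives tried, with log2 changes of at least 0.75 and adjusted p at most 0.0381.

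The rise in hair follicle cells depended on the settings and on single libraries. edgeR raised 6 of 36 members and lowered none, where 6.58% and 4.85% of 15828 genes were raised and lowered, and the median log2 change was 0.17, against −0.01 over all genes, with 31 of 36 positive. Both TKO libraries lay above both Ctrl libraries for 14 of 36, against 26.0% of all genes, and below for none, against 33.1%. The class's own markers summed to 2397 and 2451 CPM in Ctrl and 1410 and 2197 in TKO, lower without overlap, and their part in the result was not tested.

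Cdk1 had 133 and 114 CPM in Ctrl hair follicle cells and 181 in each TKO library (0.59 ± 0.11, adjusted p = 0.0204). Ube2c had 244 and 189 against 310 and 337 (0.62 ± 0.14, adjusted p = 0.0389). Bub1 had 50.03 and 45.1 against 69.2 and 64.2 (0.53 ± 0.11, adjusted p = 0.0302). In these as in the next genes the Ctrl replicate 2 library was the lowest. Ccna2 had 49.1 and 43.7 against 64.4 and 61.4 (0.48 ± 0.11, adjusted p = 0.0417), and Ccnb2 78.8 and 64.9 against 98.3 and 102.0 (0.52 ± 0.12, adjusted p = 0.0428). Kif20a had 27.8 and 23.5 against 35.5 and 37.1 (0.54 ± 0.13, adjusted p = 0.0466). Birc5, Plk1, Ccnb1, Aurka and Cenpa, which rose in basal cells, had log2 changes of 0.30 to 0.65 here that did not pass. Without Ctrl replicate 2 no member passed and 17 of 36 changes were positive (3.18% of all genes raised), and the count was 1 and 3 without TKO replicates 1 and 2 (3.73% and 8.08%) and 8 without Ctrl replicate 1 (4.28%). With all libraries kept, no member passed at Leiden resolution 2, at the higher gene minimum, with cell cycle genes kept in clustering or with uncorrected components. Of 16 alternatives, Cdk1 passed under 10, Bub1 under 8, Ube2c under 6, Ccnb2 under 5, and Ccna2 and Kif20a under 3 each.

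In suprabasal cells no member passed under edgeR, where 0.646% of 14239 genes were raised and 0.218% lowered. At an unadjusted p under 0.05 there were 13 members (16.2% of all genes), and DESeq2 raised 5 (2.29% of the genes it gave an adjusted p). All 36 log2 changes were positive, with a median of 0.68 against −0.0024 over all genes, and both TKO libraries lay above both Ctrl libraries for 20 of 36, against 31.0% of all genes, and below for none, against 18.0%. TKO replicate 1 stood above the other libraries in each of the genes named here. Ube2c had 65.7 and 94.7 CPM in Ctrl and 208 and 116 in TKO, and Cdk1 33.6 and 55.6 against 116 and 58.0. Plk1, with the highest change (1.19 ± 0.41, adjusted p = 0.255), had 6.91 and 12.9 against 31.6 and 16.1. Without TKO replicate 2 the count was 14 (2.88% of all genes), and without TKO replicate 1 it was 0 (1.05%) with 26 of 36 changes positive. The summed level of the suprabasal markers in these cells moved with the genes, at 54156 and 48257 CPM in Ctrl and 25416 and 40767 in TKO, lowest in TKO replicate 1, and its part in the result was not tested.

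The genotype effect was not shown to differ between classes. In a fit of both classes with library as a term, no member passed the interaction of genotype with class, for hair follicle against basal cells (1.18% of genes more positive, 1.12% more negative, 3 members at an unadjusted p under 0.05, against 14.3% of genes) or for suprabasal against basal cells (0.0169% and 0.0%, 2 members at an unadjusted p under 0.05, against 12.6% of genes). The median difference in log2 change was −0.08 in the first comparison and 0.32 in the second, where 34 of 36 were positive. Neither value was stable. The first was 0.08, with 23 of 36 positive, without Ctrl replicate 1 and −0.22 without Ctrl replicate 2. The second was −0.0041 without TKO replicate 1 (16 positive), 0.032 without Ctrl replicate 1 (19 positive) and 0.015 when every cell was thinned (19 positive), and it was 0.59 and 0.66 without Ctrl and TKO replicate 2.

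To read the share of cells with G2/M transcripts apart from the level in such cells, each cell was called G2/M-high when it held at least 5 UMIs, at a depth of 5000, over 37 other G2/M genes such as Cdca3, Kif4, Spc25 and Racgap1, none of which is a member. The call reads transcripts alone, and neither division nor DNA synthesis was measured in these cells. Among basal cells of Ctrl replicate 1 the share was 45.3% (95% exact binomial interval 42.5 to 48.1), and in Ctrl replicate 2 it was 39.3% (36.7 to 41.9). TKO replicate 1 reached 66.4% (63.1 to 69.6), with 61.0% (57.6 to 64.4) for TKO replicate 2. The groups did not overlap, and the means of 42.3% ± 4.24 and 63.7% ± 3.83 (SD, n = 2 each) differed by 21.5 percentage points. With 2 libraries a group the exact permutation test (two-sided) cannot go below p = 0.333, which is the value obtained here and in the other 2 classes. The intervals cover counting error only.

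Hair follicle cells had shares of 43.9% and 38.6% in Ctrl and 61.4% and 51.4% in TKO, again without overlap and 15.1 points apart. Suprabasal cells had 12.3% and 17.8% in Ctrl and 36.9% and 19.9% in TKO, a difference of 13.4 points that fell to 4.89 without TKO replicate 1. At full depth, where deeper TKO cells reach 5 UMIs more easily, the basal shares were 78.4%, 69.8%, 95.2% and 92.5% in the same order of libraries. As a background, Ctrl cells of a Merkel-like cluster, a cell type that has left the cycle, were G2/M-high in 1 of 32 and 0 of 24 cells, the latter allowing a share of up to 12.5% (3 counts of the total), at median depths of 14756 and 12401 UMIs.

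**Figure D2:**
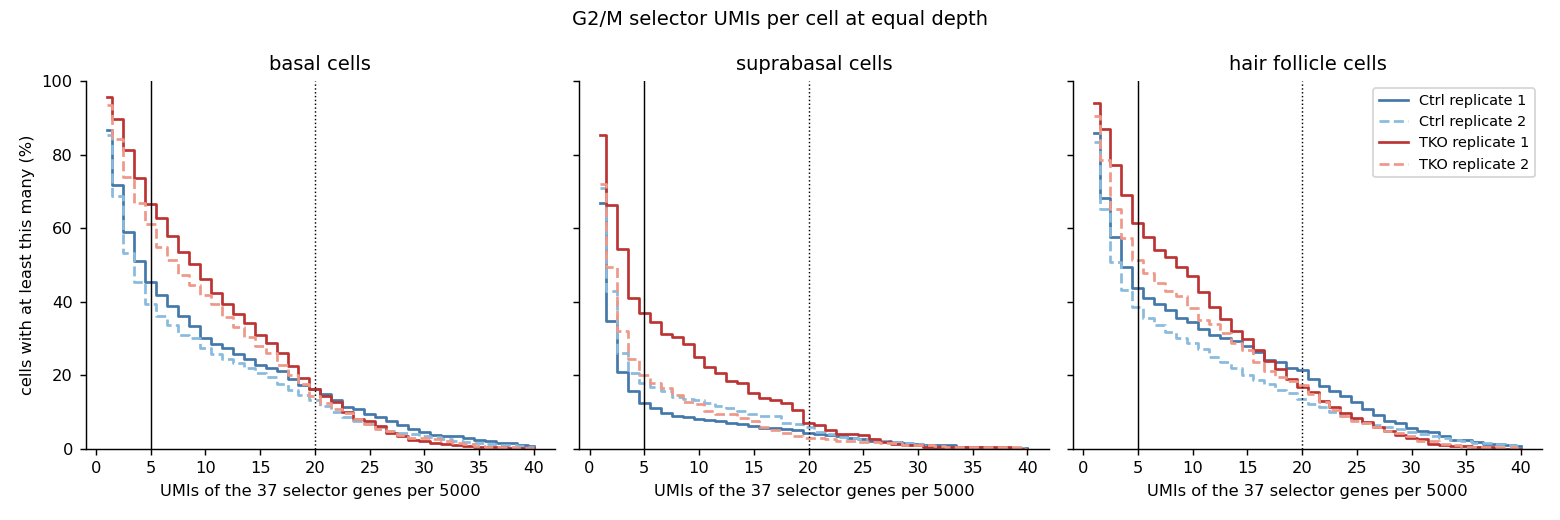
Percentage of cells (vertical axis) with at least a given number of UMIs over the 37 G2/M selector genes (horizontal axis), after thinning each cell to 5000 UMIs, with 1 line per library in each class. The TKO lines lie above the Ctrl lines in basal and hair follicle cells at the 5 UMIs used here. They meet the Ctrl lines toward 20 UMIs and lie below them at 30.

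The difference varied with the number of selector UMIs. Basal cells with no selector UMI made up 13.2% and 14.7% in Ctrl and 4.37% and 6.42% in TKO. Basal cells with at least 20, a number chosen after the data were seen, made up 16.1% and 13.1% in Ctrl and 16.3% and 14.4% in TKO, so that there the groups overlapped. In hair follicle cells the share at 20 or more was 21.4% and 13.5% against 16.8% and 17.3%, and in suprabasal cells 4.37% and 5.86% against 6.91% and 2.81%. At 30 or more, also chosen after the data were seen, the basal shares were 4.57% and 3.42% in Ctrl and 2.13% and 3.03% in TKO. Hair follicle cells then had 5.70% and 4.55% against 2.84% and 3.60%, and suprabasal cells 1.41% and 1.17% against 0.922% and 1.02%. In each class the share at 30 or more was lower in TKO without overlap.

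The G2/M-high cells were then divided by their S phase transcripts. A cell was called S-high with at least 10 UMIs over 36 S phase genes at the same depth. Basal cells high in both made up 27.0% and 23.1% in Ctrl and 46.5% and 40.9% in TKO, while basal cells that were G2/M-high only made up 18.3% and 16.1% against 19.98% and 20.1%. S-high only cells made up 27.2% and 27.1% against 18.4% and 21.9%, and cells high in neither 27.5% and 33.6% against 15.1% and 17.1%, both lower in TKO without overlap. In hair follicle cells the share high in both was 26.4% and 23.8% against 47.2% and 37.2%, and the share G2/M-high only was 17.5% and 14.8% against 14.2% in each TKO library. In suprabasal cells the share high in both, 4.11% and 8.20% against 19.4% and 7.42%, overlapped between the groups. The suprabasal share G2/M-high only was 8.23% and 9.57% against 17.5% and 12.5%, higher in TKO without overlap.

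**Figure D3:**
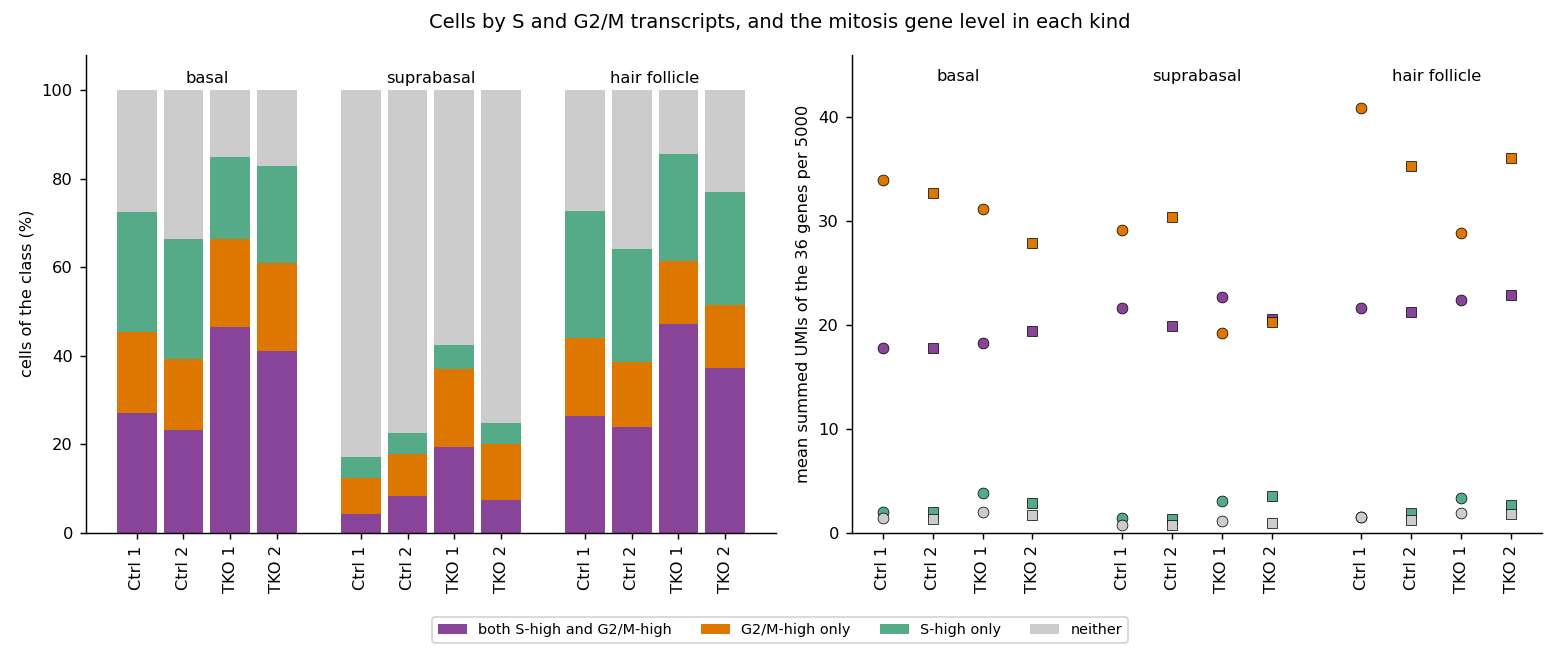
Left, percentage of the cells of each class in each library that were high in both S and G2/M transcripts, in G2/M only, in S only or in neither, at 5000 UMIs per cell. Right, mean summed UMIs of the 36 mitosis genes per 5000 in the same kinds of cell (circles replicate 1, squares replicate 2): the purple part of the bars is larger in TKO basal and hair follicle cells, while the purple points are nearly level.

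At equal depth the mean level of the mitosis genes over G2/M-high cells was not higher in TKO. The summed UMIs of the 36 members per 5000 were 11.9 and 10.3 over all Ctrl basal cells and 15.7 and 14.5 over all TKO basal cells. Within G2/M-high basal cells they were 24.3 and 23.9 in Ctrl and 22.1 and 22.2 in TKO, slightly lower and without overlap. In the remaining basal cells they were 1.66 and 1.58 against 2.94 and 2.34, above the 0.594 and 0.708 of the Ctrl Merkel-like cells. Hair follicle cells gave 29.3 and 26.6 against 23.9 and 26.5 in G2/M-high cells and 1.495 and 1.47 against 2.79 and 2.24 in the rest, and suprabasal cells 26.6 and 25.5 against 21.0 and 20.4, and 0.779 and 0.715 against 1.31 and 1.10. At full depth the direction in G2/M-high cells was the other way. Such a basal cell, called at 5000 UMIs, held 131 and 114 member UMIs in Ctrl and 172 and 158 in TKO, with medians of 24925 and 22293 against 34259 and 32285 UMIs over all genes. The corresponding member UMIs were 155 and 132 against 203 and 177 in suprabasal cells and 185 and 124 against 186 in each TKO library in hair follicle cells. More RNA per cell and deeper sequencing cannot be told apart here, so the values per 5000 compare the members with the other transcripts of the cell and not their number per cell.

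The level also differed between kinds of G2/M-high cell. In basal cells both kinds were more frequent in TKO, and those high in both programs rose more in share. The cells high in both held fewer member UMIs, 17.8 and 17.7 per 5000 in Ctrl and 18.2 and 19.4 in TKO, slightly higher without overlap. G2/M-high only cells held 33.9 and 32.7 in Ctrl and 31.2 and 27.9 in TKO, lower without overlap, so the mean over both kinds also moved with their mix. In hair follicle cells the corresponding values were 21.6 and 21.2 against 22.4 and 22.9 in cells high in both, again higher without overlap, and 40.8 and 35.3 against 28.8 and 36.1 in G2/M-high only cells, where the groups overlapped. In suprabasal cells high in both they were 21.7 and 19.8 against 22.6 and 20.6. G2/M-high only suprabasal cells held 29.1 and 30.4 in Ctrl and 19.2 and 20.2 in TKO, lower without overlap, so that in TKO they stood below the cells high in both.

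The log2 ratio of the member sum between genotypes was split into a part from the share of G2/M-high cells and a part from the levels in both kinds of cell. In basal cells the ratio was 0.44, with 0.49 from the share and −0.06 from the levels. In hair follicle cells it was 0.30, with 0.38 and −0.08 (level part −0.15 to −0.012 without 1 library), and in suprabasal cells 0.56, with 0.75 and −0.19, the last falling to a ratio of 0.12 with a share part of 0.33 without TKO replicate 1. The selector genes are switched on in the same phases as the members, so a cell in which both were more abundant would count toward the share, and the split depends on the threshold: at 3 or 10 selector UMIs the basal level part was 0.027 and 0.0040. The split was not made at 20 selector UMIs, where the basal shares were 16.1% and 13.1% in Ctrl and 16.3% and 14.4% in TKO.

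Detection was also read gene by gene. For a transcript at low counts the share of cells with it follows its level and the UMIs per positive cell stay near 1. For such members these values do not separate more cells from more transcript per cell. Ube2c and Cenpf, given below, held more UMIs per positive cell, and for them the separation was not tested. In thinned basal cells 30 of 36 members were detected in a larger share of cells in both TKO libraries than in both Ctrl libraries, against 27.2% of all genes, and 1, Cdc25b, in a smaller share, against 23.8%. UMIs per cell with the transcript were above for 6 members and below for 13, against 14.9% and 14.7% of all genes. The median ratio of TKO to Ctrl was 1.36 for the share of cells and 0.980 for the UMIs per positive cell. Ube2c was detected in 21.2% and 23.3% of Ctrl and 44.0% and 37.7% of TKO basal cells, with 2.76 and 3.16 against 3.22 and 3.02 UMIs per positive cell. Cenpf went from 29.5% and 24.1% to 38.5% and 35.5% of cells, but from 3.24 and 2.78 to 2.41 and 2.41 UMIs per positive cell. The counts for hair follicle cells were 25 above and 0 below by share (23.5% and 23.9% of all genes) and 2 and 15 by UMIs per positive cell (12.7% and 15.1%). Those for suprabasal cells were 18 and 0 (25.1% and 17.9%) and 1 and 11 (14.8% and 12.3%).

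Within G2/M-high basal cells, at full depth, edgeR raised no member and lowered 4, where 7.95% of 15521 genes were raised and 4.48% lowered. Of the 36 changes 26 were negative, with a median of −0.17 against −0.01 over all genes. The 4 were spindle, kinetochore and CDK1-activating genes. Aspm had 100.2 and 81.6 CPM in Ctrl and 51.1 and 56.5 in TKO (log2 change −0.75 ± 0.13, adjusted p = 0.0165). Cdc25b had 25.9 and 23.8 against 14.6 and 14.9 (−0.74 ± 0.13, adjusted p = 0.0167). In both genes the higher TKO library lay below the lower Ctrl library. Nusap1 had 174 and 201 against 132 and 131 (−0.51 ± 0.11, adjusted p = 0.0306), and Cenpf, a large protein of the outer kinetochore, 435 and 372 against 309 and 289 (−0.42 ± 0.11, adjusted p = 0.0499). Aspm and Cdc25b each passed under 19 of 20 alternatives, Nusap1 under 16 and Cenpf under 10. The count was 1 and 2 without Ctrl replicates 1 and 2 (2.32% and 2.0% of all genes lowered) and 3 and 6 without TKO replicates 1 and 2 (4.77% and 7.53%).

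**Figure D4:**
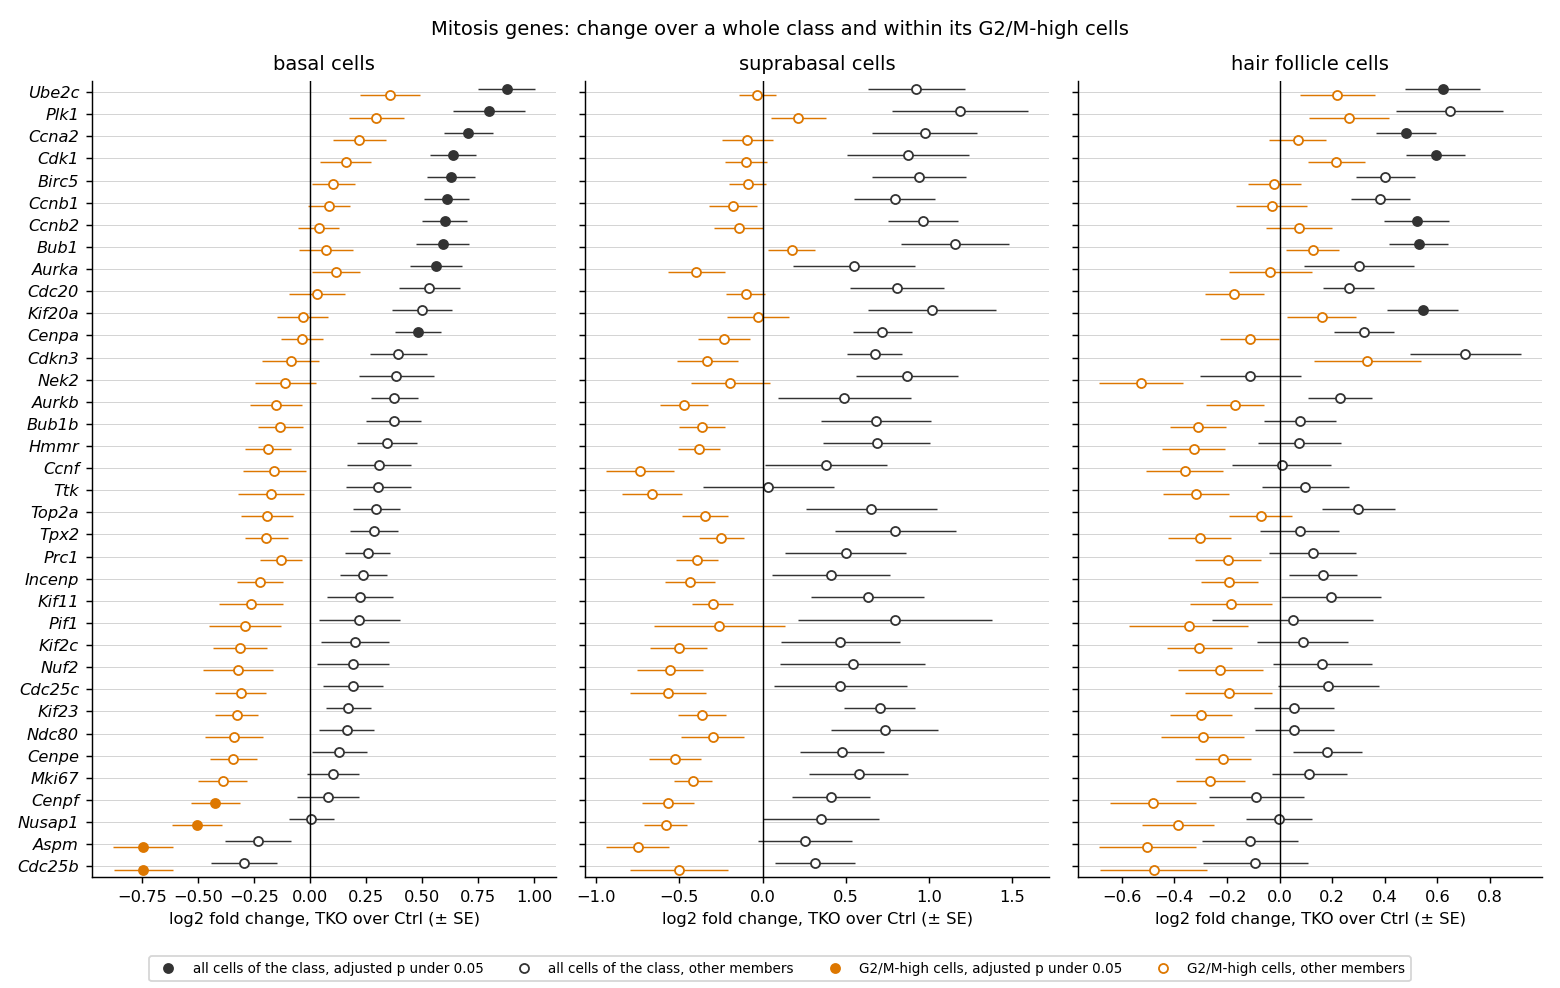
Log2 change of each mitosis gene, TKO against Ctrl (± SE, horizontal axis), with genes as rows in the order of their basal change. Dark points stand for all cells of the class and orange points for its G2/M-high cells, filled where called. Most dark points lie right of 0 and most orange points left of it. Among the orange points of the basal panel, Aspm and Cdc25b lie furthest left.

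Both TKO libraries lay below both Ctrl libraries for 20 of 36 members in G2/M-high basal cells, against 29.3% of all genes, and above for 7, against 29.4%. The 7 were Ube2c, Plk1, Ccna2, Cdk1, Aurka, Birc5 and Ccnb1, each of which had also risen over all basal cells. Ube2c had 308 and 389 CPM in Ctrl and 464 and 425 in TKO (0.36 ± 0.13, adjusted p = 0.134), and Plk1 51.8 and 43.8 against 62.4 and 54.4 (0.30 ± 0.12, adjusted p = 0.167). Mki67 was among the 20, with 456 and 411 against 316 and 340 (−0.39 ± 0.11, adjusted p = 0.0613), although its level over all basal cells did not pass in either direction. In the basal cells that were not G2/M-high, both TKO libraries lay above both Ctrl libraries for 24 of the 35 members with enough counts, against 30.2% of all genes, and below for none, against 22.6%. The selector genes were higher in these cells too, at 1.60 and 1.57 UMIs per 5000 in Ctrl and 2.22 and 1.91 in TKO. edgeR raised 8 of the 35 and lowered none there, where 4.15% and 2.16% of all genes were raised and lowered. The 8 were Ccnb2, Bub1, Ccnb1, Birc5, Ube2c, Cenpa, Ccna2 and Cdc20, with log2 changes of 0.84 to 1.70, and the count was 14 without TKO replicate 2. Ccnb2 had 10.7 and 11.9 CPM in these Ctrl cells and 42.8 and 33.4 in the TKO cells, Birc5 19.2 and 18.0 against 58.6 and 40.4, and Cenpa 22.7 and 23.4 against 57.4 and 49.2.

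In G2/M-high hair follicle cells no member passed in either direction (6.86% of 14193 genes raised, 4.4% lowered), with 12 at an unadjusted p under 0.05 (27.4% of genes) and 1 lowered by DESeq2 (3.11%). In G2/M-high suprabasal cells no member passed either (1.18% of 10973 genes raised, 1.05% lowered), with 19 at an unadjusted p under 0.05 (18.1%) and 0 by DESeq2. The changes were negative for 28 and 34 of 36 members, with medians of −0.19 and −0.35, against −0.0025 and −0.0029 over all genes. Both TKO libraries lay below both Ctrl libraries for 22 members in hair follicle cells (32.9% of all genes) and 25 in suprabasal cells (24.6%), and above for 2 in each, Bub1 and Cdk1 in the first (25.4%) and Bub1 and Plk1 in the second (25.7%). Aspm was at 104 and 88.2 CPM against 53.9 and 76.9 in hair follicle and at 105 and 72.8 against 51.7 and 54.3 in suprabasal G2/M-high cells, without overlap in either and without passing (adjusted p = 0.129 and 0.101). Without TKO replicate 2, 6 members were lowered in hair follicle cells (6.56%). In the cells that were not G2/M-high, the TKO libraries lay above for 29 of 35 members in hair follicle cells (26.5% of all genes) and below for none (26.8%), and in suprabasal cells above for 22 of 31 (30.1%) and below for Ttk alone (19.2%). edgeR raised 7 of the 35 in the first (3.15% of genes, 2.8% lowered) and 2 of the 31 in the second (1.8% and 0.732%), and lowered none in either. The first count was 4 without Ctrl replicate 1 and 12 without TKO replicate 2, and the second was 0 without either Ctrl library and 6 without either TKO library.

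Other genes of the pathway were read from lists of related function. In basal cells 8 of the 37 G2/M selector genes rose and none fell (7.58% and 4.24% of all genes), and they too chose the G2/M-high cells. Psrc1, a spindle protein, went from 13.5 and 13.8 CPM in Ctrl to 28.5 and 24.4 in TKO (log2 change 0.94 ± 0.13, adjusted p = 0.0082). Fam83d and Ska1, of the spindle, Ect2, which opens the cytokinetic furrow, and Spc24, of the kinetochore, had changes of 0.75, 0.65, 0.64 and 0.63. Of 36 S phase genes 4 rose in basal cells (7.58% of all genes) and 7 in hair follicle cells (6.58%), among them the nucleotide synthesis enzymes Rrm2 (basal 78.7 and 74.0 against 125 and 110, log2 change 0.61), Tyms (0.53) and Rrm1 (0.44).

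Of 21 transcription regulators of mitotic genes none rose in basal cells and 1 fell, where 4.24% of all genes fell. Tfdp2, a dimerization partner of E2F proteins, had 141 and 126 CPM in Ctrl and 88.5 and 91.3 in TKO (log2 change −0.58 ± 0.11, adjusted p = 0.0192). Tfdp2 also fell in hair follicle cells, and there Mybl2, the activator named above, rose (log2 change 0.68 ± 0.17, adjusted p = 0.0497), where 4.85% of all genes fell and 6.58% rose, and in basal cells the change of Mybl2 was 0.33 (adjusted p = 0.171). Mybl2 was named after its values were seen. Among 15 condensin, cohesin and separase genes 1 rose, near the share over all genes (7.58%). It was Pttg1, the separase inhibitor securin, which went from 72.1 and 66.8 to 111 and 93.7 (0.55 ± 0.11, adjusted p = 0.0257). Of 15 subunits and partners of the anaphase promoting complex none passed in basal, hair follicle or suprabasal cells, and no gene of these 5 lists passed in suprabasal cells.

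Gene length is a property the list did not use. Across the 36 members the basal log2 change was lower in genes with a longer genomic span (Spearman's rho −0.51, a description across genes of the same libraries), against −0.14 across 13046 other protein-coding genes. The value was −0.38 in hair follicle and −0.45 in suprabasal cells, and −0.52 within G2/M-high basal cells, where the other genes stood at −0.17. Nusap1, Tpx2, Cdk1, Top2a, Ccnf, Ndc80, Incenp and Kif11 overlap another annotated gene on the same strand, so their counts are less certain.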

How the data were processed

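The deposited files hold raw UMI counts per gene and barcode, which the authors made from 10x Genomics 3′ v3 libraries with Cell Ranger (7.1.0 in the file headers) on GRCm39. Barcodes with at least 2000 genes and under 10% mitochondrial UMIs were kept. Doublets were scored by Scrublet, and the top 0.8% per 1000 barcodes was removed. Cells were clustered (scanpy 1.11.5, Python 3.11.15) on 2000 variable genes and 30 components aligned between libraries by Harmony, with Leiden at resolution 1.0, after leaving out 3502 cell cycle and genotype-changed genes. Classes were named from marker lists, so they are basal-like, suprabasal-like and hair follicle-like clusters and need not match the study's own names.

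UMIs were summed per library and class, and all genes were fitted with edgeR 4.0.16 (R 4.3.3; TMM, filterByExpr, quasi-likelihood test), calling genes at a Benjamini-Hochberg adjusted p under 0.05. Levels in CPM are of the class total. Fits were also run on simulated data, whose outcome is not reported here. Shares were computed on cells thinned to 5000 UMIs, with shallower cells left out, exact binomial intervals at 95% and exact permutation tests in scipy 1.17.1. DESeq2 1.42.0 was an alternative, as were the doublet, gene and clustering settings, thinning, thresholds, leaving out each library and the replicate number as a block. With 1 embryo per library and 2 per group, p-values measure the spread between these embryos.

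Values were printed for members called in a class or G2/M-high fit. At most 10 genes of the other lists were named, the called ones of smallest p in basal cells, and promoters were printed for at most 6 called members of largest change. A few further members, Cdc20, Mki67 and Top2a among them, were named after their values were seen. The members and lists were chosen with earlier results of these data known.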

Additional observations from a re-analysis of the deposited data

Results flagged for a closer look

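The G2/M-high share was higher in TKO in keratinocytes outside the compared classes. In the clusters left unnamed it was 30.2% and 20.3% in Ctrl and 60.6% and 46.4% in TKO (TKO mean 53.5%). These cells came from different clusters by genotype, since a cluster led by Psca, Krt19 and Krt13 held 1 and 2 Ctrl and 29 and 24 TKO cells, and one led by Krt79 held 148 and 189 Ctrl and 42 TKO cells in each library. In the cluster called Merkel-like it was 3.12% and 0.0% in Ctrl (1 of 32 and 0 of 24 cells) and 55% and 27.3% in TKO (11 of 20 and 3 of 11 cells, TKO mean 41.1%). The few TKO cells placed there carried summed Merkel markers of 103 and 268 CPM, with 6 and 3 of 8 markers detected, against 19047 and 22108 with 8 of 8 in Ctrl, so Merkel cells of the genotypes are not compared by these shares.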

How the results depend on the processing

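Of 336 values of called members under the alternatives, 239 stayed called in the same direction, 97 no longer passed and 0 reversed. They cover the 20 calls in the class and G2/M-high fits and leave out the calls in cells that were not G2/M-high. Members raised ranged from 3 to 12 in basal, 0 to 8 in hair follicle and 0 to 14 in suprabasal cells when 1 library was left out, and members lowered within G2/M-high cells from 1 to 6, 0 to 6 and 0 to 3. The hair follicle against basal interaction then lowered 0 to 2. In hair follicle cells, members raised were 2 and 0 at Leiden resolutions 0.5 and 2, 0 at a higher gene minimum, 0 with cell cycle genes kept in clustering, 0 with uncorrected components, 1 with doublets kept, 3 when thinned and 3 with no expression filter. With no filter, 17 were raised in suprabasal cells, 1 in G2/M-high basal cells and 1 in the suprabasal interaction, and 4 and 5 were lowered in G2/M-high hair follicle and suprabasal cells. DESeq2 raised 5 in suprabasal cells and lowered 1 in G2/M-high hair follicle cells. In G2/M-high basal cells 2 were lowered at 3 or more selector UMIs and 2 when thinned, and in G2/M-high suprabasal cells 1 at 10000 UMIs and 3 with uncorrected components. The cause was not tested. In the cells that were not G2/M-high, whose alternatives were chosen after seeing the data, members raised ranged from 6 to 14 in basal, 4 to 12 in hair follicle and 0 to 6 in suprabasal cells without 1 library and members lowered from 0 to 1 in basal cells. With no filter they were 2, 13 and 6 raised, with 1 lowered in suprabasal cells.

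With the replicate number as a block, 8, 0 and 1 members were raised in basal, suprabasal and hair follicle cells and 2 lowered within G2/M-high basal cells, and in suprabasal cells that were not G2/M-high 0 were raised. Same-numbered libraries deviated in opposite directions (correlations −0.226, −0.456 and −0.161), and the labels pair them by number alone. By the same values libraries of unlike number deviated alike across the groups, and whether they share a factor was not tested. Crossed pairing, chosen after seeing the data, raised 13, 16 and 10 and lowered 6, 7 and 4 within G2/M-high basal, suprabasal and hair follicle cells.

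The share differences ranged from 18.5 to 24.5 points in basal, 4.89 to 21.8 in suprabasal and 10.1 to 20.1 in hair follicle cells without 1 library. At 20 selector UMIs, also chosen after seeing the data, they reversed to −0.252 in suprabasal and −0.395 in hair follicle cells. The basal level part was −0.0841 at 10000 UMIs, 0.0040 and 0.0272 at 10 and 3 selector UMIs, −0.0892 at the higher gene minimum, −0.11 with cell cycle genes kept and −0.0864 with doublets kept, and −0.07 to −0.04 without 1 library. The suprabasal level part was −0.10 and −0.14 at resolutions 0.5 and 2, 0.0210 at 10 selector UMIs, −0.11 at the higher gene minimum, −0.24 with cell cycle genes kept, −0.0072 with doublets kept and −0.10 uncorrected, and −0.21 to −0.16 without 1 library. With 2 embryos a group, calls moved with single libraries. Depth left 31 of 36 members with enough counts to test in suprabasal cells that were not G2/M-high.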
